A study of Mus musculus with 32 samples.

Results

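Neurog1, Neurog2, Atoh1, Neurod1, Neurod4, Dll1, Dll3, Hes1 and Hes5 were followed in single cells of the forebrain and hindbrain of mouse embryos. They were picked by name, as the proneural and Delta-Hes genes, and were 9 of the 23154 genes measured. The embryos were of the strain C57BL/6J, with no transgene or treatment named in the labels, and 7 embryos were used: 3 at embryonic day (E) 9.5, 2 at E10.5 and 2 at E11.5. Cells of 8 dissected organs were picked one by one and sequenced with unique molecular identifiers (UMIs), which count each captured transcript once. The brain samples came from 6 of these embryos, and in them 184 forebrain and 185 hindbrain cells belonged to the neuronal group (NC), 1 of the 4 major groups that the study made by clustering all cells. The other 3 groups were epithelial (EC), mesodermal (MC) and hematopoietic (HC). E9.5 embryo 2 was labelled female and the other embryos male. At E9.5 the hindbrain tissue was labelled metencephalon. The E9.5 brain cells were sequenced on a HiSeq 2500 and the later ones on a HiSeq 4000, so embryonic day and sequencer cannot be told apart between E9.5 and the later days.

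In the developing neural tube, proneural genes encode basic helix-loop-helix (bHLH) transcription factors that drive a progenitor towards a neuronal fate. They switch on Delta ligands, which activate Notch receptors on neighbouring cells. Activated Notch, through the DNA-binding protein RBPJ, switches on Hes genes, whose products repress proneural genes and keep those neighbours as progenitors. Neurog1, Neurog2 and Atoh1 are proneural factors, Neurod1 and Neurod4 are bHLH factors of neuronal differentiation, Dll1 is a Notch ligand, Dll3 is a divergent Delta protein that acts mainly inside the cell, and Hes1 and Hes5 are repressors. Hes factors are bHLH proteins too, but "bHLH genes" below stands for Neurog1, Neurog2, Atoh1, Neurod1 and Neurod4 alone.

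On mm10, with GENCODE M21 gene models, Neurog1 lies at chr13:56250478-56252163 on the minus strand and Atoh1 at chr6:64729125-64731245 on the plus strand, each with 1 exon. Neurog2 lies at chr3:127633135-127635631 on the plus strand. Neurod1 lies at chr2:79452521-79456751 and Neurod4 at chr10:130268152-130280240, both on the minus strand. The Delta genes are both on the minus strand, Dll1 at chr17:15367354-15376872 and Dll3 at chr7:28293553-28302238. Hes1 lies at chr16:30064384-30067796 and Hes5 at chr4:154960923-154962371, both on the plus strand. The models of Neurod1, Dll1 and Hes5 each overlap another gene on the opposite strand, and Neurod1 also overlaps Cerkl on its own strand. Whether the counting used the strand is not given in the sources used here, so reads of these overlapping genes cannot be told apart with certainty.

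The promoters of Hes5 and Dll1 are shown because they hold motifs of the kinds that the factors above bind, GTGGGAA (RBPJ-type) in Hes5 and CAGCTG (an E-box, the motif type of bHLH factors) in Dll1. They are the 250 bases before the gene start in RefSeq, build GRCm38.p6, with the motifs in capitals on either strand. The Hes5 window is chr4:154960673-154960922 on the plus strand, and the Dll1 window, before the more upstream of its RefSeq starts, is chr17:15376933-15377182 on the minus strand.
Hes5: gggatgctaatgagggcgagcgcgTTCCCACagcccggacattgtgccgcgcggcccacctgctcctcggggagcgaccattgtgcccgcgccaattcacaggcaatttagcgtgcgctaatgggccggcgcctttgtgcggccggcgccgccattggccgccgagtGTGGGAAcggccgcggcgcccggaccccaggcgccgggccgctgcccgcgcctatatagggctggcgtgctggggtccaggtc
Dll1: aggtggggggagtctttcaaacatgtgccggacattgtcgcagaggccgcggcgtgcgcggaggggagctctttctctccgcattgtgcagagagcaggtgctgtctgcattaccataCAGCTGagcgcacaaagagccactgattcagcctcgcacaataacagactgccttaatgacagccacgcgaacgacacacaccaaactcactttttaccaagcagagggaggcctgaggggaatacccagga
The Hes5 window held GTGGGAA 2 times, once on each strand, and the Dll1 window held CAGCTG 1 time. Windows were found for 8 of the 9 members, 10 windows in all, and were searched on both strands for these motifs, for another E-box spelled CAGATG, and for an N-box of the kind that Hes factors bind, spelled CACGAG. Beside the windows shown, a Dll3 window held CAGCTG 1 time and the others held none of these motifs. Of 32851 windows of this length before RefSeq gene starts, 5.42% held the RBPJ-type motif, 13.0% the E-box found in Dll1, 14.4% the other E-box and 5.37% the N-box. No 2 of these motifs overlapped in the windows shown. These matches are letters in a window, not measured binding.

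The files give each gene's UMIs per 1000000 UMIs of the cell, which the study names TPM, with no division by gene length. Levels below are log2(TPM/10 + 1), so 0 stands for no UMI, and a gene was called expressed in a cell at 1 or more, which is 10 TPM. Because the values are not per length, levels are compared between samples and groups, not between genes. The 1819 cells that the study kept held between 20326 and 2524348 UMIs, with a median of 306642, and no cell had the same values as another. In the brain NC cells the median depth of an embryo and organ ranged from 95277 UMIs, in the forebrain of E10.5 embryo 2, to 1115880 UMIs, in the forebrain of E9.5 embryo 2. Intervals of shares are 95% Wilson intervals, and a share of 0 is given the limit of 3 cells in the number counted. Both cover counting error only and concern cells at 10 TPM, not cells that may hold uncaptured transcripts. "Thinned" shares are taken after drawing 100000 UMIs from each cell, which leaves out shallower cells. In a thinned cell 1 UMI is 10 TPM, so a thinned share counts each cell with at least 1 drawn UMI. Replicates are embryos, and a test compares embryo means over at least 3 cells.

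Markers of the NC label were present. All 6 neural progenitor markers and all 6 neuron markers were expressed in NC cells of both organs, for example Nes, an intermediate filament of progenitors, in 79.3% of forebrain and 85.9% of hindbrain cells. En1, a factor of the anterior hindbrain and midbrain, was expressed in 0 of 184 forebrain cells and 45.9% of hindbrain cells. Over the hindbrain embryos the mean level of En1 ran from 0.00 to 2.75 and that of Pax6 from 0.00 to 4.12. The summed level of the 4 hindbrain markers there was 0.00 to 1.29 at E9.5, 2.01 to 2.82 at E10.5 and 1.14 to 2.60 at E11.5. The hindbrain embryos thus differed in these markers, whose part in the values below was not tested. Hox genes of the more caudal hindbrain were absent or nearly so in the hindbrain cells, with Hoxb1 in 0 of 185 cells, which allows a share of up to 1.62%, and Hoxa2 in 0.5%. Transcripts of the embryonic globin Hba-x were at 10 TPM or more in 78.8% of forebrain and 83.2% of hindbrain NC cells, while the blood factor Gata1 was in 2.7% and 0.5%. The summed level of the 6 neuron markers was 4.00 to 7.51 in the E9.5 forebrain, 12.81 to 24.05 at E10.5 and 25.41 to 29.63 at E11.5, and in the hindbrain 13.53 to 13.73, 18.36 to 29.59 and 26.06 to 29.92. The summed level of the 6 hematopoietic markers in the same NC cells was 1.56 to 3.69, 13.56 to 16.25 and 7.19 to 10.77 in the forebrain and 1.46 to 12, 9.94 to 10.04 and 10.80 to 11.83 in the hindbrain at the 3 days.

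Blood cells of the same dissections give a background for the neuronal members, though not for Hes1, which 8 of 16 heart HC cells also expressed. Of the 34 HC cells of forebrain and hindbrain, at a median of 359448.5 UMIs against 243162 in the 369 NC cells, 10 expressed Hes5 (29.4%, interval 16.8 to 46.2), 9 Hes1, 6 Dll3, 3 Neurog2, 3 Neurod1, 2 Dll1, 1 Neurog1, 1 Atoh1 and 0 Neurod4. In the 180 HC cells of the liver 7 of the 9 genes were expressed in 0 cells, which allows a share of up to 1.67%, Dll3 in 0.6% and Hes1 in 9.4%. The share of hindbrain NC cells with Atoh1, 4.9%, was not above that of the 17 hindbrain HC cells, 5.9%, nor was the 13.0% of forebrain NC cells with Neurog2 clearly above the 11.8% of the 17 forebrain HC cells. The levels in those blood cells were lower: Neurog2 stood at a median of 1.56 in the forebrain HC cells that expressed it against 3.55 in the NC cells, and the 1 HC cell with Atoh1 stood at 1.12 against a median of 2.24 in 9 NC cells. That HC cell held 1 UMI of Atoh1, against 398 UMIs in 23 hindbrain NC cells. Thinned, 0 of 15 hindbrain HC cells and 7 of 164 hindbrain NC cells held Atoh1, with overlapping intervals. For Neurog2 in the forebrain, 3 of 15 thinned HC cells and 16 of 146 thinned NC cells held it. Forebrain shares at E9.5 of 3.4% for Dll3 and 1.1% for Neurod1, given below, were at or under the 5.9% of forebrain HC cells for each gene. In the 15 forebrain HC cells deep enough to be thinned, the thinned shares were 66.7% for Hes1, 40.0% for Hes5, 33.3% for Dll3 and 13.3% for Neurod1. Without thinning, the shares of the 17 forebrain HC cells for these genes were 41.2%, 17.6%, 5.9% and 5.9%. These HC shares were not split by day or embryo, and only 2 embryos held at least 3 forebrain HC cells. They are therefore not a background matched to a day.

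In the forebrain, Dll3 and the differentiation factor Neurod1 were higher with embryonic day, and no member was lower past the test. Dll3 was close to absent at E9.5, at 0.15 and 0.08 in the 2 embryos, and stood at 1.19 and 3.43 at E10.5 and 2.58 and 2.96 at E11.5. All 4 later embryos lay above both E9.5 embryos. Its slope was 1.33 per day (SE 0.309, limma adjusted p = 0.0091, 6 embryos), and the share of cells expressing it was 3.4% at E9.5 (interval 1.2 to 9.5), 61.1% at E10.5 (44.9 to 75.2) and 71.7% at E11.5 (59.2 to 81.5). After thinning these shares were 4.6%, 75.0% and 71.8%, against 33.3% of forebrain HC cells.

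Neurod1 stood at 0.11 and 0.02 at E9.5, 0.00 and 1.65 at E10.5 and 3.91 and 0.81 at E11.5. The embryos of one day were far apart at E10.5 and at E11.5, and E10.5 embryo 1, with 9 cells, overlapped E9.5. The slope was 1.15 per day (SE 0.358, limma adjusted p = 0.0395), and 1.1%, 25.0% and 51.7% of cells expressed it at the 3 days. These were 2 members called of 9 tested, both higher, where 12.1% of the 14200 genes tested were called and 1.69% were called higher. Of all calls 14% were higher genes, against 49.6% with edgeR on summed UMIs. Neither call held among the 4 embryos sequenced on the HiSeq 4000, where the slopes were 0.46 for Dll3 (adjusted p = 0.835) and 1.53 for Neurod1 (adjusted p = 0.475), and the calls were also lost in cells thinned to equal depth, where the slopes stayed at 1.17 and 1.07 (adjusted p = 0.076 and 0.0897), and with edgeR, at 3.03 and 3.58 on its own log2 scale (adjusted p = 0.101 and 0.0693). Without E11.5 embryo 1 the slope of Neurod1 was 0.43 (adjusted p = 0.397), and without either E9.5 embryo both calls were lost (adjusted p = 0.0623 to 0.133), as was that of Neurod1 without E10.5 embryo 2 (adjusted p = 0.0502). The summed neuron and blood markers given above were also higher at the later days in the same cells, the sum of 4 mesenchyme markers was 0.05 to 0.13, 1.29 to 2.64 and 0.55 to 1.35 at the 3 days, and that of 4 epithelial markers was 1.02 to 1.91, 0.22 to 0.97 and 0.02 to 0.19. Their part in these slopes was not tested.

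The other members of the forebrain did not pass the main test. Neurog2, the main neurogenin of the dorsal forebrain, stood at 0.00 and 0.08 at E9.5, 0.40 and 0.44 at E10.5 and 1.94 and 0.21 at E11.5 (slope 0.52, SE 0.184, limma adjusted p = 0.0676). E11.5 embryo 1 alone stood apart, and without that embryo the slope was 0.13 (adjusted p = 0.561), while without the other E11.5 embryo it was 0.87 (adjusted p = 0.00683). Neurog2 was called by edgeR (3.49, adjusted p = 0.0212), with the filter on genes expressed in 10% of cells (adjusted p = 0.0289) and on log2(TPM + 1) (adjusted p = 0.032). Dll1 stood at 1.71 and 0.84 at E9.5, 0.75 and 1.34 at E10.5 and 2.93 and 2.17 at E11.5 (slope 0.64, SE 0.255, adjusted p = 0.102). Both E11.5 embryos were above the 4 earlier ones. The repressor Hes1 stood at 2.44 and 2.76, then 3.05 and 1.79, then 1.23 and 0.41 (slope -0.89, SE 0.318, limma adjusted p = 0.0699), and the share of cells with Hes1 was 86.4% at E9.5 (interval 77.7 to 92.0), 69.4% at E10.5 (53.1 to 82.0) and 25.0% at E11.5 (15.8 to 37.2). Both E11.5 embryos were below the 4 earlier ones, and without E10.5 embryo 1 the slope passed the test (adjusted p = 0.0239). Thinned, those shares were 88.5%, 75.0% and 33.3%, and the thinned forebrain HC share of Hes1, 66.7%, lay above the last of them.

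Hes5, which in the forebrain marks radial progenitors, had its lowest forebrain values at E10.5, at 1.40 and 0.40, against 2.46 and 2.38 at E9.5 and 2.27 and 1.85 at E11.5. The E10.5 embryos did not overlap the other 4, and at equal depth 40.0% of the thinned cells expressed Hes5 at E10.5, against 75.9% at E9.5 and 69.2% at E11.5. The E10.5 share equalled the 40.0% of the thinned forebrain HC cells, which were not split by day. A slope on day does not describe such a dip (-0.18, SE 0.343, limma adjusted p = 0.806). Neurog1 ranged from 0.00 to 0.58 over the 6 forebrain embryos and Neurod4 from 0.00 to 0.16, with 9 and 2 expressing cells. Atoh1 was expressed in 0 of 184 forebrain cells, which allows a share of up to 1.63%.

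**Figure D1:**
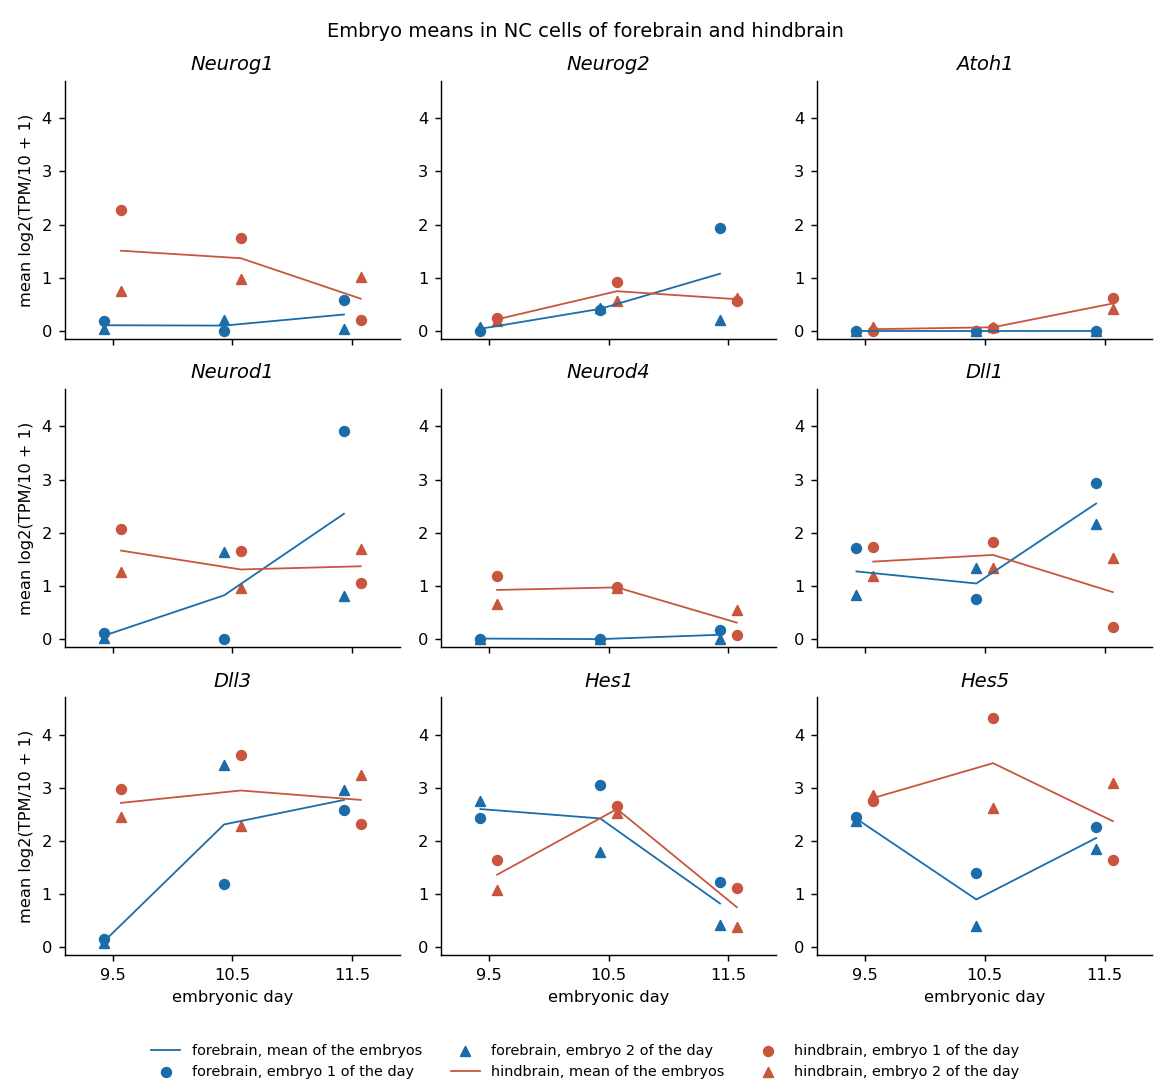
Level of each of the 9 genes in NC cells by embryonic day: the y axis is the mean log2(TPM/10 + 1) over the cells of an embryo, circles and triangles are the 2 embryos of a day, and lines join the means of the embryos (blue forebrain, red hindbrain). Forebrain Dll3 starts at 0.15 and 0.08 and ends at 2.58 and 2.96, forebrain Neurod1 ends at 3.91 and 0.81, and Atoh1 stays at 0 in every forebrain embryo.

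In the hindbrain the neurogenin Neurog1 and the differentiation genes were already present at E9.5, and no member was called with day. Neurog1 stood at 2.27 and 0.75 at E9.5, 1.75 and 0.99 at E10.5 and 0.21 and 1.01 at E11.5 (slope -0.45, SE 0.206, limma adjusted p = 0.214). The days overlapped, although the share of expressing cells was 40.0%, 44.8% and 15.4%. Neurod4 stood at 1.19 and 0.66, then 0.99 and 0.96, then 0.07 and 0.55 (slope -0.31, SE 0.103, adjusted p = 0.0938). Both E11.5 values were below the 4 earlier ones. Neurod1 stood between 0.97 and 2.07 in all 6 embryos (slope -0.15, adjusted p = 0.866), and Neurog2 between 0.19 and 0.93 (slope 0.19, adjusted p = 0.6).

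Atoh1, the proneural factor of the rhombic lip, from which cerebellar granule cells arise, was at 0.00 and 0.07 at E9.5, 0.06 and 0.08 at E10.5 and 0.62 and 0.41 at E11.5. Both E11.5 embryos were above the other 4. The slope was 0.24 per day (SE 0.045, limma adjusted p = 0.0141), which is under the minimum size of 0.5 per day set for a call. The expressing cells numbered 1 of 75, 2 of 58 and 6 of 52. With the minimum size, 0 of 9 members were called in the hindbrain where 3.81% of 14200 genes were, and with the adjusted p alone 1 of 9 was, Atoh1, where 4.75% of genes were. At an unadjusted p under 0.05 there were 3 members and 3120 of the 14200 genes. With edgeR on summed UMIs 0 members and 23 of 12784 genes were called. The adjusted p of Atoh1 was 0.0537 in thinned cells, 0.199 with edgeR, 0.153 among the HiSeq 4000 embryos, and 0.0891, 0.065 and 0.0769 without E11.5 embryo 1, E9.5 embryo 1 and E9.5 embryo 2.

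The Delta and Hes genes of the hindbrain did not pass the test with day. Dll3 stood between 2.29 and 3.61 in the 6 embryos (slope 0.03, adjusted p = 0.983), where the E9.5 forebrain had been near 0. Dll1 stood at 1.73 and 1.19, then 1.82 and 1.34, then 0.24 and 1.53 (slope -0.29, adjusted p = 0.557). E11.5 embryo 1 was the one low value. Hes1 was at 1.65 and 1.08 at E9.5, 2.67 and 2.54 at E10.5 and 1.12 and 0.39 at E11.5 (slope -0.31, adjusted p = 0.629). Its E10.5 embryos lay above the other 4, and 44.0%, 77.6% and 17.3% of cells expressed it, or 43.8%, 75.5% and 21.1% thinned. Hes5 stood at 2.75 and 2.86, then 4.31 and 2.62, then 1.65 and 3.10 (slope -0.22, adjusted p = 0.771), with E10.5 embryo 1 alone above 4. All 30 NC cells of that hindbrain expressed it.

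Set against each other with day in the fit, the 2 brain regions differed in Neurod4 and Neurog1 more clearly than in the other members, although no member reached a call, which here needed a difference of at least 1. Neurod4 had a mean of 0.03 ± 0.065 (SD, n = 6 embryos) in forebrain and 0.74 ± 0.401 in hindbrain, and was higher in the hindbrain in 5 of 6 embryos. The difference of 0.71 (SE 0.135, limma adjusted p = 0.012) passed the adjusted p and not the minimum size, and the adjusted p ranged from 0.00247 to 0.0538 with an embryo left out and was 0.0889 with edgeR. Neurog1 had means of 0.17 ± 0.217 and 1.16 ± 0.737, again with 5 of 6 embryos higher in the hindbrain (difference 0.99, SE 0.256, adjusted p = 0.0785). In both genes the exception was E11.5 embryo 1. Without that embryo the difference of Neurog1 was 1.26 (adjusted p = 0.019).

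Of the remaining members, Hes5 was higher in the hindbrain in 5 of 6 embryos (difference 1.09, SE 0.385, adjusted p = 0.224). Dll3 differed by 1.08 (SE 0.434, adjusted p = 0.303), with 2.37 to 2.83 more in the hindbrain in the E9.5 embryos and E10.5 embryo 1 and -1.15 to 0.27 in the other 3. The differences of Neurod1, Atoh1, Neurog2, Dll1 and Hes1 were 0.37, 0.21, 0.01, -0.32 and -0.38. None of these passed the test. Thus 0 of 9 members were called where 0.606% of 14200 genes were called and 0.415% were called higher in the hindbrain, and with the adjusted p alone 1 of 9 was called, Neurod4, where 1.19% of genes were. At an unadjusted p under 0.05 there were 5 members and 1746 of the 14200 genes, and edgeR called 0 members and 193 of 12236 genes.

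Whether the change with day differed between the regions was tested directly. No member was called, and 0% of the 14200 genes tested were (1004 genes and 5 members at an unadjusted p under 0.05, and 2 genes with edgeR). The hindbrain slope minus the forebrain slope was -1.30 for Dll3 (SE 0.438, adjusted p = 0.572), -1.29 for Neurod1 (SE 0.507, adjusted p = 0.664) and -0.93 for Dll1 (SE 0.36, adjusted p = 0.661). The forebrain calls of Dll3 and Neurod1 were therefore not shown to be particular to the forebrain.

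The other genes of the pathway were followed in a list of 50 named genes, all measured. In the forebrain 4 of 49 tested rose with day and 3 fell. Of all 14200 genes 12.1% were called, 240 of them higher (1.69% of all genes) and 1479 lower. Those that rose were Gadd45g, a growth arrest gene (1.53 per day, adjusted p = 0.00327), Dner, a Notch ligand of neurons (0.91), Insm1, a zinc finger factor of newborn neurons (0.77), and Cbfa2t3, a co-repressor (0.66). Id3, an inhibitor of bHLH factors, fell by 1.53 per day (limma adjusted p = 0.000872), Dlk1, a ligand-like protein, by 0.87 and Id2 by 0.86. The median slope of the list was 0.01, against -0.04 over all genes. In each of the calls of Dner, Insm1, Id2 and Cbfa2t3 leaving out 1 embryo could end the call, whereas those of Gadd45g, Id3 and Dlk1 held in each of the 6 omissions, and 0 of the 7 held among the HiSeq 4000 embryos.

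In the hindbrain 2 of 49 rose with day, Ebf1 by 0.87 and Ebf3 by 0.69, factors of early neurons, and 5 fell, where 3.81% of all genes were called, 46 of them higher and 495 lower. Among the 5 were the inhibitors Id3 (-1.46, adjusted p = 0.00971), Id2 (-1.28) and Id1 (-1.13) and the Notch ligand Jag1 (-0.56). The median slope of the list was -0.02, against -0.05 over all genes. Each of these 7 calls was lost in at least 2 of the 6 omissions of an embryo, and 0 of the 7 were kept without E9.5 embryo 2 or with edgeR. Between the regions 9 of 49 were higher in the hindbrain and 0 lower: Id3 by 2.07, Nhlh2 by 1.90, Id2 by 1.84, Id1 by 1.77, Ebf3 by 1.74, Ebf2 by 1.65, Ebf1 by 1.55 and Btg2 by 1.15, with Hes3 as the ninth, where 0.415% of all genes were called higher. With edgeR, with all kept cells and without a gene filter, 4 of these 9 calls were kept in each case. Nhlh2 and the Ebf genes act in neuronal differentiation, Btg2 is an antiproliferative gene of neurogenic divisions and Hes3 is another Hes repressor. Id1, Id2, Id3 and Ebf3 were called in each of the 6 omissions, and Btg2, Ebf1, Ebf2, Hes3 and Nhlh2 were lost in 2 to 4 of them. The median difference was 0.18, against 0.03 over all genes. None of the 49 was called for the difference between the slopes.

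Cells often held several of the 9 genes. At least 1 of the 5 bHLH genes was expressed in 43.1% of the 369 brain NC cells, 30.4% in the forebrain and 55.7% in the hindbrain, at least 1 Delta gene in 69.4% and at least 1 Hes gene in 79.4%. Both a bHLH and a Hes gene were expressed in 30.1%, a bHLH gene without a Hes gene in 13.0%, and none of the 9 in 8 cells (2.2%). Expression of 2 of the 9 was the most common state, in 118 cells. Of the cells with the most, 20 expressed 6, 18 of them from the hindbrain, 7 expressed 7 and 5 expressed 8.

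The bHLH genes of neuronal differentiation lay in cells with Dll3. Of the 73 cells with Neurog1, 84.9% expressed Dll3, 71.2% Neurod1 and 50.7% Neurod4, against 39.5%, 19.6% and 3.0% of the 296 cells without Neurog1. Of the 46 cells with Neurod4, 84.8% expressed Neurod1 and 80.4% Neurog1. Dll3 was also expressed in 87.3% of the 110 cells with Neurod1 and in all 9 cells with Atoh1, and none of those 9 expressed Neurog2. All 9 were hindbrain cells, where 111 of 185 NC cells expressed Dll3 and 15.1% expressed Neurog2. In only 9 cells, the absence of Neurog2 cannot be told apart from a share of that size. The Hes genes often lay in the same cells, and 74.4% of the 203 cells with Hes1 expressed Hes5, against 54.2% of the other 166. Of the 179 cells with Dll3, 34.1% expressed Hes1, against 74.7% of the 190 without it. Over the 369 cells, each centred on the mean of its embryo and organ, the correlation was 0.63 between Neurod1 and Dll3, 0.52 between Neurog1 and Dll3, 0.22 between Hes1 and Hes5, -0.40 between Dll3 and Hes1 and -0.35 between Neurod1 and Hes5. The shares, unlike the correlations, pool both organs and the 3 days. Of the cells with Neurog1, 64 were from the hindbrain, as were 44 of those with Neurod4. In the E9.5 forebrain 3.4% of cells expressed Dll3 and 86.4% Hes1. The part of organ and day in these shares was not tested. The shares and correlations describe cells that share embryos, libraries and depth differences, and carry no test.

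**Figure D2:**
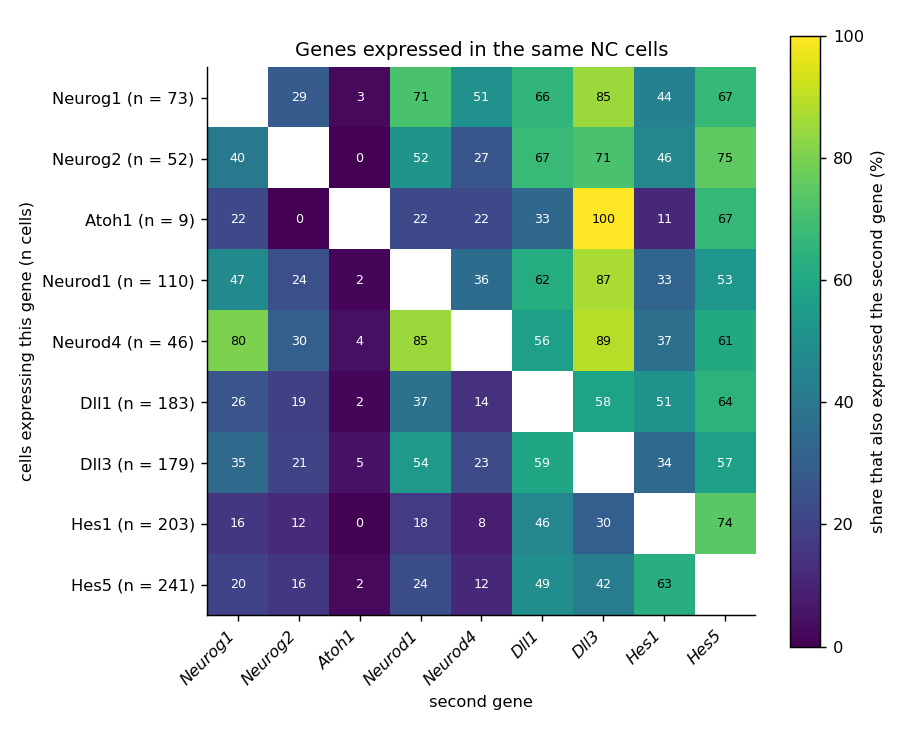
Share of the brain NC cells expressing the gene of a row that also expressed the gene of a column, in percent, with the number of expressing cells beside each row, both organs together. The row of Neurod4 shows 85% with Neurod1 and 80% with Neurog1, and the row of Hes1 shows 74% with Hes5 and 30% with Dll3.

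The same question was put to embryos as replicates, by comparing within each embryo and organ the cells that expressed a gene with those that did not. For Hes5, with 211 expressing and 128 other cells, Neurod1 stood at 0.64 against 2.26 in E9.5 embryo 1, 0.16 against 1.71 in E9.5 embryo 2, 0.00 in both in E10.5 embryo 1, 0.49 against 1.94 in E10.5 embryo 2, 2.05 against 3.18 in E11.5 embryo 1 and 0.77 against 2.16 in E11.5 embryo 2. It was lower in the Hes5-expressing cells in 5 of 6 embryos, by a mean of -1.19 (SE 0.275, limma adjusted p = 0.105). Dll3 was lower in 6 of 6, with a mean of 1.35 against 2.91 (difference -1.56, SE 0.609, adjusted p = 0.245), and Hes1 was higher in 6 of 6, at 2.40 against 1.32 (difference 1.08, SE 0.416, adjusted p = 0.239). Dll1 and Neurod4 were each lower in 5 of 6 embryos, by -0.33 and -0.40 (adjusted p = 0.154 and 0.2). None of the 8 members passed the adjusted p, and 0% of 14062 genes did. At an unadjusted p under 0.05 there were 2552 genes and 5 members, and edgeR on summed UMIs called 103 genes and 1 member, Neurod1 (-3.15, adjusted p = 0.000511).

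Depth and organ lie beside these differences. The Hes5-expressing cells were the deeper ones in 5 of 6 embryos, and thinned to equal depth the differences were -1.09 for Neurod1, -1.32 for Dll3 and 1.04 for Hes1. The difference of Neurod1 was -0.68 in the forebrain alone and -2.03 in the hindbrain alone. That of Hes1 was larger in the forebrain, at 1.39 there and 0.28 in the hindbrain alone, where Hes1 was lower in the Hes5-expressing cells of both E10.5 embryo 2 and E11.5 embryo 2. E10.5 embryo 1 entered with the forebrain alone, 4 cells against 5, since all of its hindbrain cells expressed Hes5. The Dll1 difference went both ways in the hindbrain. There it was 0.42 in E9.5 embryo 1, 0.429 in E10.5 embryo 2 and 0.27 in E11.5 embryo 2. It was -0.346 in E9.5 embryo 2 and -0.24 in E11.5 embryo 1. In the forebrain it ran from -1.272, in E9.5 embryo 1, to 0.04, in E11.5 embryo 2, the only positive value there.

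For Neurog2, with 49 expressing and 223 other cells, Neurog1 was higher in the expressing cells in 6 of 6 embryos, at a mean of 1.59 against 0.89 (difference 0.70, SE 0.192, adjusted p = 0.94). Averaged over the organs used, Neurog1 was thus at a higher level beside Neurog2 in each embryo, though not past the test. E9.5 embryos 1 and 2 and E10.5 embryo 1 entered with the hindbrain alone, with 4, 3 and 9 expressing cells. Within an organ, Neurog1 was lower beside Neurog2 in the hindbrain of E11.5 embryo 1 (-0.233) and the forebrain of E11.5 embryo 2 (-0.041). The expressing cells were the deeper ones in 4 of 6 embryos. Neurod4 was higher in 5 of 6 (difference 0.68, SE 0.247). For Dll1, with 183 expressing and 186 other cells, Dll3 was higher in 6 of 6 embryos, at 2.68 against 1.89 (difference 0.79, SE 0.333, adjusted p = 0.91), and Neurog1 in 6 of 6, at 0.89 against 0.41. The difference of Neurog1 was 0.475 (SE 0.206, adjusted p = 0.91). Within an organ, Neurog1 was lower beside Dll1 in the forebrain of E10.5 embryo 2 (-0.218) and E11.5 embryo 2 (-0.085). The same held in the hindbrain of E11.5 embryo 1 (-0.244). Dll3 was lower beside Dll1 in the hindbrain of E10.5 embryo 1 (-0.277) and the forebrain of E9.5 embryo 2 (-0.02). Thinned, the Dll3 difference was 0.27. No gene was called in either comparison, 0% of 13794 genes for Neurog2 and 0% of 14199 for Dll1, with 598 and 608 genes at an unadjusted p under 0.05 and 1 and 0 genes called by edgeR. No gene of the pathway list was called in any of the 3 comparisons.

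**Figure D3:**
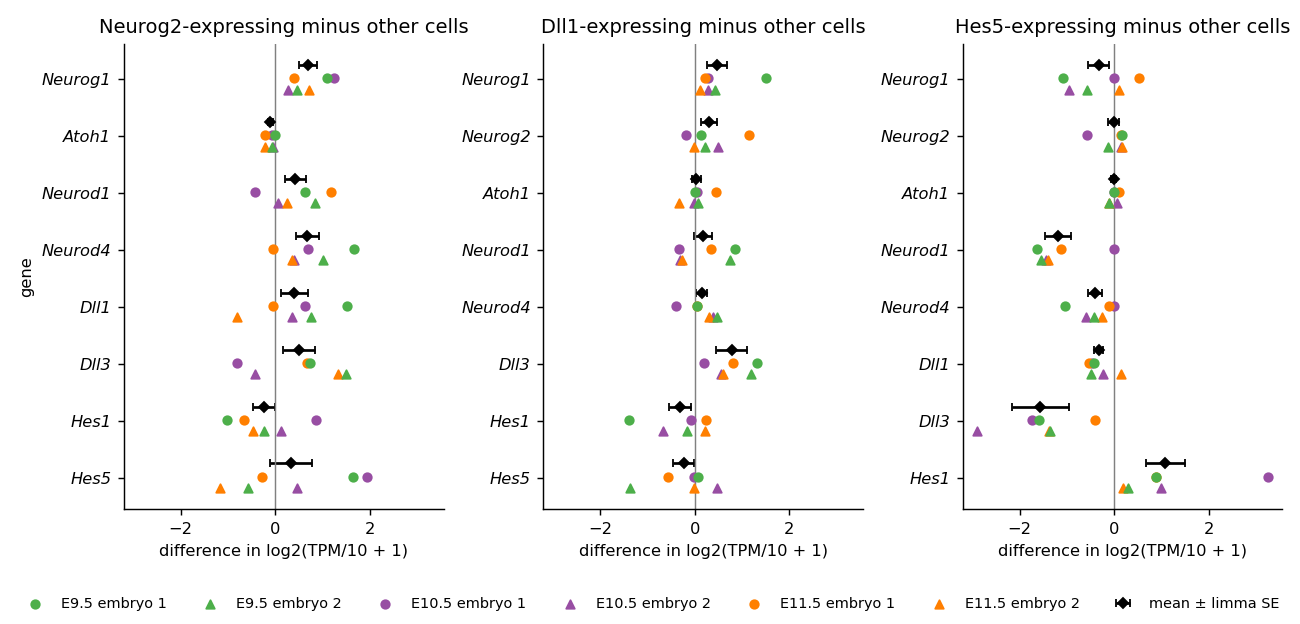
Difference in mean log2(TPM/10 + 1) between NC cells that expressed Neurog2, Dll1 or Hes5 (1 panel each) and the other cells of the same embryo and organ, for the other 8 genes. Points are the 6 embryos and bars the mean ± SE of the limma fit. In the Hes5 panel Neurod1 and Dll3 lie below 0 at -1.19 and -1.56 and Hes1 lies above 0 at 1.08.

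The genes whose levels ran most closely with each member over the 369 cells, among 9862 genes expressed in at least 10% of them, were partly shared between members. Neurog1 was most like Gadd45g (r = 0.57), Dll3, Mfng, Rgs16 and Hes6 (0.50), and Dll1 was most like Gadd45g (0.48), Hes6, Btg2, Neurog1 and Mfng (0.37). Mfng, a fringe enzyme that modifies Notch, and Hes6, a Hes protein that promotes neuronal differentiation, were thus in both lists. Dll3 was most like Srrm4, a splicing regulator of neurons (0.70), Fam110a, Neurod1, Ebf2 and Mfng (0.62), and Neurod1 most like Dll3 (0.63), Ebf2, Nhlh2, Ppp1r14a and Nhlh1 (0.57). Neurod4 was most like Akr1b8, Ebf2 and Elavl4 (0.47 each), Dll3 and Ppp1r14a (0.46).

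The Hes genes had other neighbours. Hes1 was most like Phgdh, an enzyme of serine synthesis (0.41), Cyr61, Cdca8, Ajuba and Zfp36l1 (0.36), and Hes5 most like Phgdh (0.48), Gapdh, Ran, Fabp7 and Hspe1 (0.46). Fabp7 is a fatty acid binding protein of radial glia. For Neurog2 the highest r was 0.27, with Haus5, and for Atoh1, in 9 cells, 0.36 with Tspan9. These coefficients over cells with shared libraries and depth carry no test.

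Against the other groups, the 5 bHLH genes were nearly confined to NC cells, and Hes1 was not. The study made the groups by clustering on regulon activity, which is itself computed from expression, so these values are given without a test. Mean levels over embryos of Neurog1, Neurog2, Atoh1, Neurod1 and Neurod4 were at most 0.064 in each of the EC, MC and HC groups, where NC reached 0.10 for Atoh1 and 0.50 to 1.38 for the others. Hes1 stood at 3.36 ± 0.788 (SD, 7 embryos) in EC, with 85.0% of 307 cells expressing it, 2.17 ± 0.476 in MC (63.1% of 875), 1.73 ± 0.801 in NC (53.6% of 384, 6 embryos) and 0.60 ± 0.564 in HC (15.3% of 249). MC and NC, neighbours in this order, differed by less than their SDs. Dll1 stood at 1.56 ± 0.246 in NC, 0.25 ± 0.167 in EC and 0.14 ± 0.066 in MC, Dll3 at 2.44 ± 0.724 in NC and 0.15 ± 0.055 in MC, and Hes5 at 2.45 ± 0.684 in NC and 0.11 ± 0.143 in HC, the next highest.

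By organ the order of Hes1 began with forebrain MC at 3.87 ± 2.232 (2 embryos), lung EC at 3.82 ± 1.063 and intestine EC at 3.42 ± 0.831, and went through somite MC at 2.96 ± 0.42 to forebrain NC at 1.95 ± 1.001, forebrain HC at 1.59 ± 0.293, hindbrain NC at 1.57 ± 0.891 and heart HC at 1.41 ± 0.382. Neighbours in this order differed by less than the larger of their SDs, except heart HC and liver HC, the latter at 0.25 ± 0.191. Forebrain NC thus lay below every EC set for Hes1, between lung MC and skin MC. Hindbrain NC lay below every EC and MC set, between forebrain HC and heart HC. Somite NC, from 1 embryo, stood at 0.21.

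**Figure D4:**
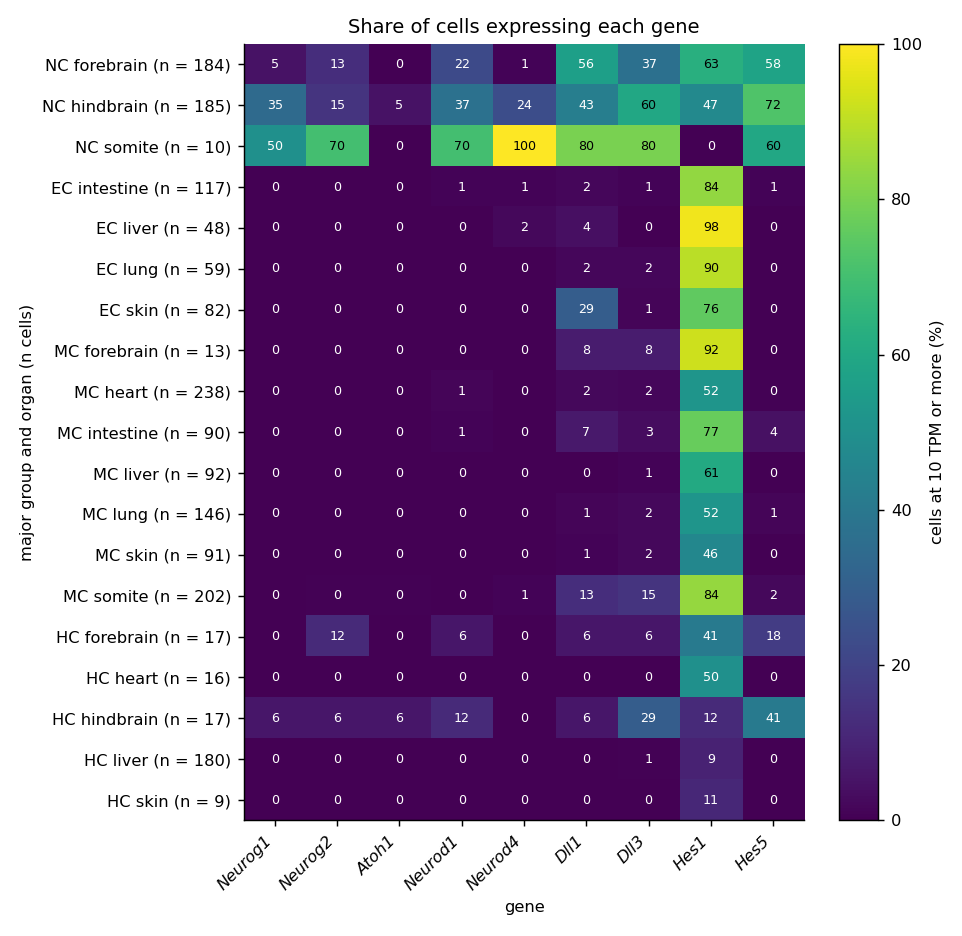
Percent of cells with at least 10 TPM of each of the 9 genes (columns) in each group and organ (rows), with cell numbers. Hes1 is high in epithelial sets, up to 97.9% in liver EC, while outside NC the bHLH genes reach at most 11.8%, in brain HC sets of 17 cells.

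Neuronal cells were also found in other organs, and 10 of the 15 were somite cells of E9.5 embryo 2. Neurod4 was expressed in 10 of those 10 cells, at a median of 5.36 and a range of 1.83 to 6.89, where 23.8% of hindbrain and 1.1% of forebrain NC cells expressed it. Dll3 was expressed in 8 of 10 at a median of 6.59, Dll1 in 8 at 2.52, Neurod1 in 7 at 4.69, Neurog2 in 7 at 2.62, Hes5 in 6 at 2.59 and Neurog1 in 5 at 0.82. At the threshold of 10 TPM Neurod4 was the one member in every cell, while Dll3 and Hes5 had at least 1 UMI in all 10. Hes1 reached 0.62 at most and Atoh1 was 0 in all 10. The 3 cells with Hes5 above 5 stood at 6.73, 6.72 and 5.61, and the first and second of these held Dll3 at 0.89 and 0.71 where the other 8 held it at 5.36 to 7.54. The cells came from 1 embryo and were deep, at a median of 1048605 UMIs, and they carry no test.

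**Figure D5:**
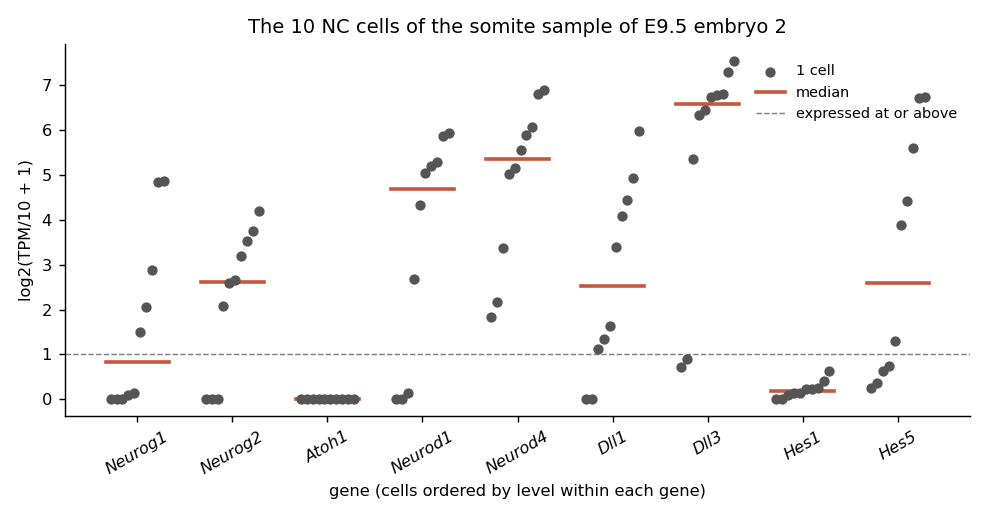
Level of each of the 9 genes, as log2(TPM/10 + 1), in each of the 10 NC cells of the somite sample of E9.5 embryo 2. Neurod4 is at 1.83 or more in every cell, Hes1 at 0.62 or less, and the 2 cells with Dll3 at 0.89 and 0.71 hold Hes5 at 6.73 and 6.72.

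In somite MC cells Hes1 stood between 2.42 and 3.44 in the 7 embryos and Dll1 between 0.13 and 0.46. Dll3 stood at 1.13, 0.60 and 0.15 in the E9.5 embryos, 0.12 and 0.22 at E10.5 and 0.37 and 0.47 at E11.5. The E9.5 embryos were spread over nearly the whole range. The slopes on day were -0.18 for Hes1 (adjusted p = 0.693), 0.05 for Dll1 (0.75), -0.13 for Dll3 (0.693) and -0.10 for Hes5 (0.55), and 0 of the 4 members tested were called, where 0% of 12935 genes were. At an unadjusted p under 0.05 there were 1597 genes and 0 members, and edgeR called 0 genes. The 5 bHLH genes were expressed in too few somite MC cells to be tested, and 0 of 35 genes of the pathway list were called.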

How the data were processed

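Single cells of 8 organs were picked by mouth pipette into a 3' protocol with cell barcodes and UMIs. The authors aligned reads to mm10 with TopHat 2.0.12, counted uniquely mapped reads with HTSeq, removed duplicate UMIs and deposited, per cell, CPM values under the name TPM, without gene length. Cells under 2000 detected genes were left out by the study, leaving 1819 of 1916 cells, 1815 of them with a major group. Groups and embryos of cells come from the annotation of the study. The values gave back whole UMIs in 100.0% of cases (tolerance 0.05 UMI).

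The members, gene lists and tests were chosen with earlier results of these data known. All organs of an embryo came from the same animal, so embryo numbers pair the organs, within-stage correlations of deviations being 0.359, -0.218 and -0.11. limma 3.58.1 (R 4.3.3, trend, Benjamini-Hochberg over all genes) was fitted to embryo means of at least 3 cells, on log2(TPM/10 + 1), for genes expressed in at least 3 compared cells. A call needed an adjusted p under 0.05 and a difference of at least 1, or 0.5 per day. The slopes and the organ difference had no embryo block, and the 3 cell comparisons were within embryo. The text names all 9 members, up to 8 called genes of a 50-gene pathway list per comparison, and the 5 genes most alike each member. Alternatives were log2(TPM + 1), other gene and cell filters, each embryo left out, thinning, the HiSeq 4000 embryos alone, all kept cells, the embryo block, single organs and edgeR 4.0.16 on summed UMIs. The fits were tested on simulated data. Some values of marker and pathway genes are not reported here.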

Additional observations from a re-analysis of the deposited data

Results flagged for a closer look

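Of 24 sets of 6 embryos, 3 held an embryo far from the others by Dixon's criterion, which flags about 1 in 20 by chance. Neurog1 differed between Dll1-expressing and other cells by 1.52 in E9.5 embryo 1, where the other 5 embryos lay between 0.12 and 0.44. Between Hes5-expressing and other cells, Neurod1 differed by 0.00 in E10.5 embryo 1, where it was at 0 in all 9 cells, and Hes1 by 3.26 in the same embryo. That embryo entered with 4 and 5 forebrain cells.

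Dll1 was higher in hindbrain than in forebrain NC cells in both E9.5 embryos, by 0.015 and 0.355, and in both E10.5 embryos, by 1.07 and 0.005, and lower in both E11.5 embryos, at -2.69 and -0.642. The differences of 0.015 and 0.005 are close to 0. Thinned, E10.5 embryo 2 stood at 1.462 in forebrain and 1.401 in hindbrain, so its sign changed at equal depth. Of 27 comparisons of a gene between 2 stages, the 2 with both embryos of one stage above 0 and both of the other below were those of Dll1 at E11.5 against each earlier day. The difference between stages was not tested as such, and the hindbrain minus forebrain slope on day was -0.93 (adjusted p = 0.661).

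Of 18 brain cells in the files that the study did not keep, 5 had at least 2000 detected genes. These 5 cells, with a median of 11978 UMIs, held 17 UMIs of Neurod1, 40 of Neurod4, 5 of Dll1, 15 of Dll3 and 29 of Hes5. None of these cells enters a comparison above.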

How the results depend on the processing

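Of 1024 values of the members under alternatives, 997 kept their side of the threshold, 64 uncalled ones with a change of sign, 13 lost a call, 14 gained one and 0 called values reversed. Forebrain slopes gave 2 called members, 4 on log2(TPM + 1) (Neurog2 and Hes1 joining) and with the 10% filter, 1 without a gene filter (Dll3), 1 with edgeR (Neurog2, neither main call being kept), 0 thinned and 0 with the HiSeq 4000 embryos alone, and 0 to 3 with an embryo left out. Hindbrain slopes gave 0, and 1 on log2(TPM + 1) and with the adjusted p alone (Atoh1). The organ difference gave 0, 2 on log2(TPM + 1), 1 with the adjusted p alone and 0 to 1 with an embryo left out. The Hes5 comparison gave 0, and 1 with edgeR. Over all genes, forebrain calls of 1719 became 2880 on log2(TPM + 1), 975 thinned, 0 with the HiSeq 4000 embryos, 848 with edgeR and 689 to 1807 with an embryo left out. Hindbrain calls of 541 became 1189, 241, 9 and 23 in that order, 204 without a filter and 4 to 659 with an embryo left out (4 without E9.5 embryo 2), and 55.6% of the HiSeq 4000 calls were higher against 8.5%. Slope difference calls of 0 became 1 without a filter and with the 10% filter, 2 with edgeR and 0 to 6 with an embryo left out. Organ calls of 86 became 205 on log2(TPM + 1), 43 without a filter, 54 with all kept cells, 193 with edgeR and 169 with the adjusted p alone. Somite calls of 0 became 22 on log2(TPM + 1), 12 with the HiSeq 4000 embryos and 0 to 41 with an embryo left out. Neurog2 and Hes5 comparison calls of 0 became 1 and 103 with edgeR. The cause of these changes was not tested. The median of all genes moved to -0.16 and -0.173 per day in forebrain and hindbrain on log2(TPM + 1), and to -0.422 in the Neurog2 and 0.117 in the Hes5 comparison with edgeR. The embryo block changed no member's call in the slopes or the organ difference (consensus correlation 0.036 and -0.00377), and without it the adjusted p of Neurod1 in the Hes5 comparison was 0.65. Depth limits shares of cells: 14 of 27 forebrain cells of E10.5 embryo 2 held under 100000 UMIs.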

Other observations

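Dll1 was also found in skin EC cells, with 24 of 82 cells expressing it. It stood at 0.00 and 0.03 in E9.5 embryos 2 and 3 (7 and 11 cells), 0.82 and 0.42 in the E10.5 embryos (7 and 15 cells) and 1.497 and 0.983 in the E11.5 embryos (19 and 23 cells). Both E9.5 embryos were below the later 4. This was noticed in the values and not tested.

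Hes5 in somite MC cells was expressed in E9.5 embryo 2 in 4 of 26 cells, and these were the only expressing cells among the 202 somite MC cells. All 4 expressed Hes1, 1 expressed Dll1 and 0 expressed Dll3. The somite sample of the same embryo held the 10 NC cells described above, with Hes5 up to 6.73. Whether the Hes5 of the MC cells is linked to those NC cells was not tested.

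Of the 5 NC cells outside brain and somite, both heart cells, from E10.5 embryo 2, expressed Dll1 (2.08 and 4.96) and Dll3 (2.20 and 4.72), and 1 of them also Neurog1 at 4.54, Neurod1 at 5.70 and Neurod4, Hes1 and Hes5 at 1.79 each. Of the 3 intestine cells, each from another embryo, 1 held Dll3 at 6.13 and no other member, 1 held Hes1 alone at 4.61, and 1 held Hes1 at 3.86, Hes5 at 3.31 and Neurod1 at 1.89.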
